A study of Mus musculus with 8 samples.

Results

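Interferon beta, its receptor and the interferon regulatory factors (IRFs) were followed as 10 genes of the 18193 measured: the ligand gene Ifnb1, the receptor genes Ifnar1 and Ifnar2, and Irf1, Irf2, Irf3, Irf5, Irf7, Irf8 and Irf9. They were chosen by name. A probe set, a group of short probes that reads 1 transcript region, counted for a gene when the annotation listed that symbol and no other, which gave 18 probe sets of 45101. The brightest probe set, by its mean on the 8 arrays, stands for its gene. The other probe sets, present for Ifnar1, Ifnar2, Irf3, Irf5 and Irf8, serve as a check.

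The 8 Affymetrix arrays hold RNA of mouse bone marrow cells that were cultured with M-CSF until they were macrophages and were purified by adherence. They form 4 groups of 2: Tpl2 wild-type and Tpl2-deficient (Tpl2 KO) cells, each left unstimulated or treated with 1 μg/mL of lipopolysaccharide (LPS) from Escherichia coli 0111:B4, a ligand of toll-like receptor 4. Map3k8 is the gene of Tpl2, a kinase upstream of MEK and ERK in the signal of this receptor. All groups share the culture. Strain, age, sex, the nature of the Tpl2 deletion and the LPS time of these arrays are not given in the sources used here.

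Values are log2 RMA signals, so a difference of 1 is a 2-fold change. Replicates are labelled biological without saying whether they are separate animals, so the p-values reflect the spread of these samples alone, which may be technical. The 2 arrays of LPS-treated Tpl2-deficient cells differed by a median SD of 0.129 across genes, against 0.0649 to 0.0662 in the other groups. The limma fit assumes the same spread in all groups, so its errors may be too small for comparisons with that group. Groups of 2 arrays can lie apart without a call, as Ifnar1, Irf2 and Irf9 did between genotypes without LPS. Whether groups overlap is thus given as description. No detection calls were used. A level under the array medians (6.48 to 6.53) was read as a bound, and folds from it are written "at least". Map3k8, the targeted gene, was lower by 1.00 (log2) in Tpl2-deficient cells both without and with LPS (adjusted p = 0.00237 and 0.000125, limma). All 8 macrophage markers measured lay above the array median on every array.

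Interferon beta is the type I interferon that macrophages release soon after a microbial signal. Toll-like receptor 4 reaches its gene through the adaptor TRIF and the kinases TBK1 and IKKε, which phosphorylate IRF3. IRF3, or later IRF7, joins NF-κB and ATF2/c-Jun on a short enhancer just before the gene. The secreted protein binds a receptor made of the IFNAR1 and IFNAR2 chains, and a complex that holds IRF9 then switches on the interferon-stimulated genes.

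Promoters of all 10 genes were found in the RefSeq table of assembly GRCm38.p6, as 13 windows from 250 bases before to 50 after an annotated start. The windows below are those of the genes whose LPS response differed most between the genotypes (Ifnb1, Ifnar1 and Irf1), with Irf2, which carries overlapping IRF matches. They are written 5′ to 3′ on the gene's strand, and capitals mark matches on either strand to the IRF core AANNGAAA, the pair of IRF cores (GAAA, any 2 bases, GAAA), the kappa B motif (GGGA, any 2 bases, TTCC) or the gamma-activated site TTCNNNGAA.
Ifnb1, chr4:88522745-88523044, minus strand: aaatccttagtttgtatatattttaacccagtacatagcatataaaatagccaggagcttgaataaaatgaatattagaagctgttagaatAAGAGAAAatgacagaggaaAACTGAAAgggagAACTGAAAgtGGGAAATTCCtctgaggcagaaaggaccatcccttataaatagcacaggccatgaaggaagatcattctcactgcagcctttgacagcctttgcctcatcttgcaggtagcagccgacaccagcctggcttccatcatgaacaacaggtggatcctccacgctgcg
Ifnar1, chr16:91484965-91485264, plus strand: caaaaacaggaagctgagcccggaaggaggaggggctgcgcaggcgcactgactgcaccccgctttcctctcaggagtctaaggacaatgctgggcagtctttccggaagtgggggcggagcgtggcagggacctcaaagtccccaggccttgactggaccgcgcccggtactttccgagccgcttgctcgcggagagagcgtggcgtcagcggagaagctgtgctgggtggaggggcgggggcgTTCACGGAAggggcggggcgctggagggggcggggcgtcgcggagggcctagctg
Irf1, chr11:53769764-53770063, plus strand: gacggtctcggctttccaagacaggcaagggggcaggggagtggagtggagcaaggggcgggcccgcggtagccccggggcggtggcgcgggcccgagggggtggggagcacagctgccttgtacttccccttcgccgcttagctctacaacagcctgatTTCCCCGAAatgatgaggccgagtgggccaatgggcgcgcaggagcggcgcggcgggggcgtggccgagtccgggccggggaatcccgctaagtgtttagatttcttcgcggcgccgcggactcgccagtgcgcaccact
Irf2, chr8:46739495-46739794, plus strand: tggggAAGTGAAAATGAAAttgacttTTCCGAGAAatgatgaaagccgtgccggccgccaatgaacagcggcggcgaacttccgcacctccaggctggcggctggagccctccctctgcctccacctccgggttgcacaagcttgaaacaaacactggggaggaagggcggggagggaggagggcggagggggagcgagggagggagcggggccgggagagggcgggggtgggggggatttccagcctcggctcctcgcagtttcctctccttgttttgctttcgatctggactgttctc
The Ifnb1 window holds 3 IRF cores, which begin at positions -159, -139 and -126 from the start, followed at once by a kappa B match, GGGAAATTCC, at -116. Irf2 holds 2 IRF cores that overlap, at -245 and -239, and in them the pair of cores. The IRF core is in 2 of the 13 windows, the pair in 1 and the kappa B motif in 1. Only this narrow spelling of the kappa B motif was searched, so windows without it may hold a kappa B sequence of another form. Among all promoters, the IRF core is in 23.9% of the 32851 windows of this length, the pair in 3.44% and the kappa B motif in 1.47%. A gamma-activated site is in 5 of the 13 windows (Ifnar1, Ifnar2, Irf1, Irf2 and Irf8) and in 8.3% of all windows. Irf1 also has another window, chr11:53770223-53770522, which is not printed and holds none of the motifs searched. The AP-1 motif TGANTCA, the only spelling searched, is in 7.81% of all windows and in 0 of the 13, which may hold other forms. These are matches of letters, and the arrays do not measure binding.

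LPS changed 8 of the 10 genes in each genotype, and the LPS response of 4 differed without Tpl2. In wild-type cells LPS raised 7 (Ifnb1, Ifnar1, Irf1, Irf2, Irf5, Irf7 and Irf9) and lowered Irf3. Over all genes, 52.2% passed an adjusted p of 0.05 (limma), 21.3% as higher and 30.9% as lower. In Tpl2-deficient cells it raised 6 and lowered 2, Irf3 and Ifnar1, against 41.8% of all genes, 16% higher and 25.8% lower. The genotypes differed with LPS for 3 genes, Ifnb1 and Irf1 being higher and Ifnar1 lower in Tpl2-deficient cells, against 13.7% of all genes, 8.01% higher and 5.73% lower. Without LPS, 0 of 10 passed (limma; 2 had an unadjusted p under 0.05, Irf3 and Irf7), against 0.5% of all genes, 0.154% higher and 0.346% lower. The LPS response itself differed between genotypes for 4, Ifnb1, Irf1 and Irf3 upward and Ifnar1 downward, against 8.59% of all genes, 5.72% upward and 2.87% downward. The median difference of the 10 genes was 1.31 for LPS in wild type (0.04 over all genes) and 0.93 in Tpl2-deficient cells (0.00 over all genes). These are RNA levels of whole cultures, in which fewer cells of a type and less RNA per cell cannot be told apart.

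**Figure D1:**
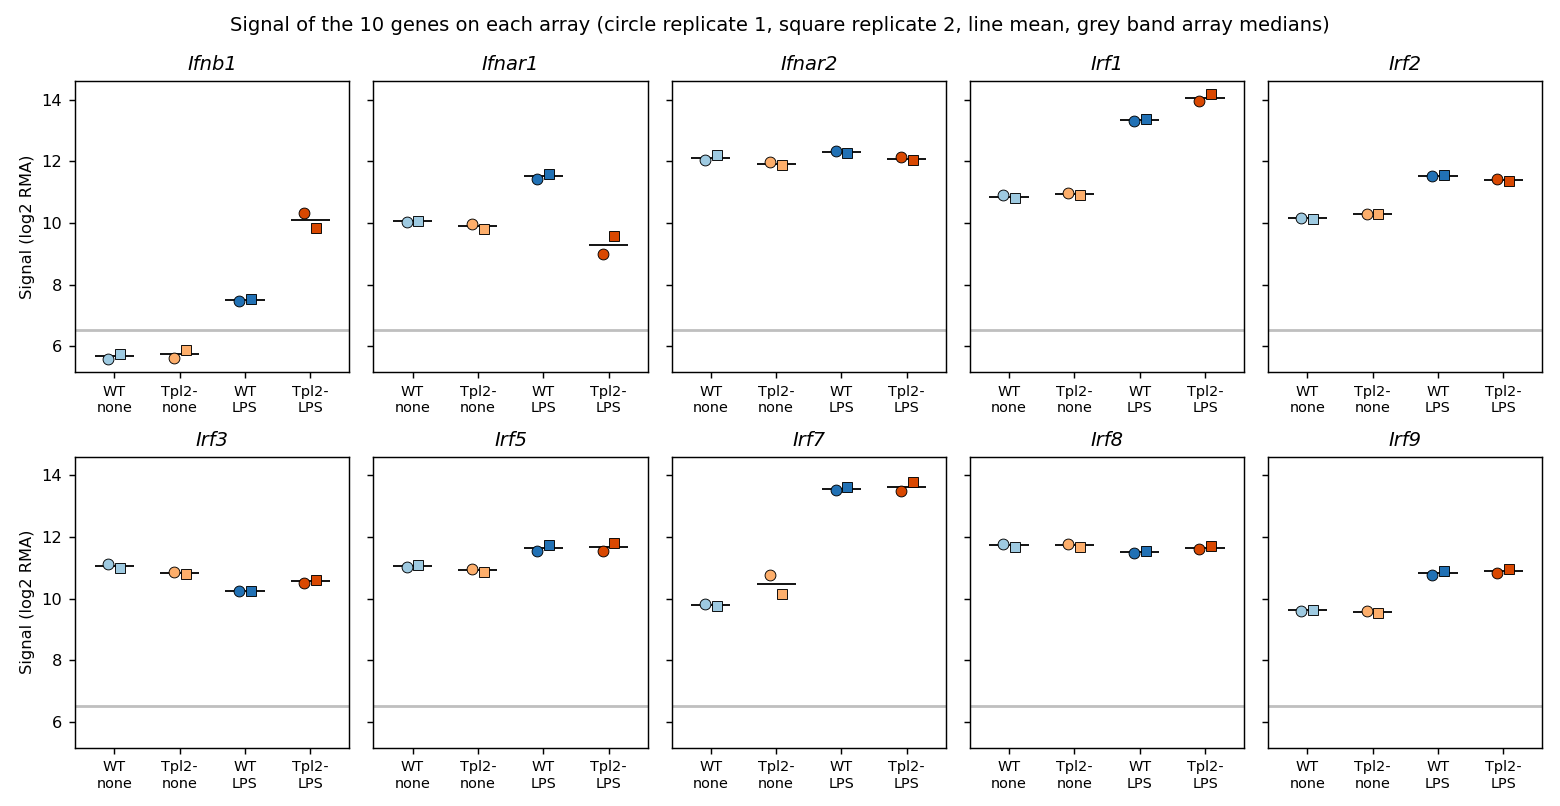
Signal (log2 RMA) of the 10 genes on each of the 8 arrays, by group on the x axis; circles are replicate 1, squares replicate 2, lines group means and the grey band the array medians. Ifnb1 lies under the band without LPS and reaches 9.84 and 10.33 in LPS-treated Tpl2-deficient cells, while Ifnar1 is lowest there, at 8.997 and 9.58.

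Ifnb1 was induced in both genotypes and much more without Tpl2. Its signal was 5.596 and 5.747 in unstimulated wild-type cells, 5.62 and 5.89 in unstimulated Tpl2-deficient cells, 7.48 and 7.54 in wild-type cells with LPS, and 10.33 and 9.84 in LPS-treated Tpl2-deficient cells. All 4 unstimulated arrays lie under the array medians and overlap between genotypes, and the LPS groups lie far apart. LPS raised Ifnb1 at least 3.58-fold in wild type (1.84 ± 0.16, SE; adjusted p = 1.67e-06, limma) and at least 20.1-fold in Tpl2-deficient cells (4.33 ± 0.16, adjusted p = 1.95e-09). With LPS, Tpl2-deficient cells had 5.95-fold more signal than wild type (2.57 ± 0.16, 95% interval 2.23 to 2.92), a difference that only 5 of the 18193 genes exceeded upward. The gap in LPS response was 2.49 ± 0.22 (adjusted p = 6.5e-05), which rests in part on the levels under the medians. In order, LPS-treated Tpl2-deficient cells were highest, LPS-treated wild-type cells next, and the unstimulated groups did not differ beyond their spread (0.09 ± 0.16, interval -0.26 to 0.43). A single probe set reads Ifnb1.

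The receptor chain Ifnar1 moved in opposite directions in the genotypes. IFNAR1 is the chain to which TYK2 is attached. Its signal was 10.04 and 10.08 in unstimulated wild-type cells, 9.98 and 9.81 in unstimulated Tpl2-deficient cells, 11.44 and 11.58 in wild-type cells with LPS, and 8.997 and 9.58 in LPS-treated Tpl2-deficient cells. The wild-type arrays with LPS are above all others and the Tpl2-deficient arrays with LPS below all others. LPS raised Ifnar1 2.74-fold in wild type (1.46 ± 0.16, adjusted p = 1.61e-05, limma). In Tpl2-deficient cells it was lower by 0.61 ± 0.16 with LPS (adjusted p = 0.0105), a call lost without the unstimulated Tpl2-deficient replicate 1 (-0.52, adjusted p = 0.0787) or the LPS-treated replicate 1 (-0.31, adjusted p = 0.0549). With LPS, Ifnar1 was 4.67-fold lower in Tpl2-deficient than in wild-type cells (-2.22 ± 0.16, adjusted p = 5.42e-06), and 42 genes had a lower difference. The LPS responses differed by -2.06 ± 0.23 (adjusted p = 0.000299).

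The other Ifnar1 probe set, 1442222_at, gave the same directions. It read 7.52 and 7.64, then 7.70 and 7.47, in unstimulated wild-type and Tpl2-deficient cells, and 8.48 and 8.42, then 6.35 and 6.69, with LPS. It rose by 0.87 with LPS in wild type (adjusted p = 0.000191 over all probe sets) and fell in Tpl2-deficient cells (-1.07, adjusted p = 4.35e-05). Its genotype difference with LPS was -1.93 (adjusted p = 2.89e-06). The sizes of the fall and of the genotype difference are bounds, since LPS-treated Tpl2-deficient replicate 1 reads under the array median.

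For Ifnar2, the chain to which JAK1 is attached, the probe sets disagreed. The brightest, 1451462_a_at, read 12.04 and 12.19 in unstimulated wild-type cells, 11.96 and 11.88 in unstimulated Tpl2-deficient cells, 12.33 and 12.28 in wild-type cells with LPS, and 12.12 and 12.05 in LPS-treated Tpl2-deficient cells. Neighbouring groups are close, and no comparison passed: the genotype difference with LPS was -0.22 ± 0.10 (interval -0.44 to 0.01, adjusted p = 0.223, limma). Another, 1427691_a_at, read 10.13 and 10.08, then 10.11 and 10.04, without LPS in wild-type and Tpl2-deficient cells. With LPS it read 11.16 and 11.29 in wild type and 10.21 and 10.29 in Tpl2-deficient cells, so that wild type alone stood apart. It rose by 1.12 in wild type (adjusted p = 3.63e-06), and its LPS response differed between genotypes by -0.95 (adjusted p = 0.00302). The last, 1440169_x_at, gave 0.93 in wild type (adjusted p = 9.21e-05) and a difference of -0.95 (adjusted p = 0.0107). Its name marks probes that may also bind other transcripts. With the mean of all 3 probe sets, Ifnar2 was 0.68 lower in LPS-treated Tpl2-deficient cells (-0.68, adjusted p = 4e-04). Which transcripts of Ifnar2 each probe set reads was not tested.

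**Figure D2:**
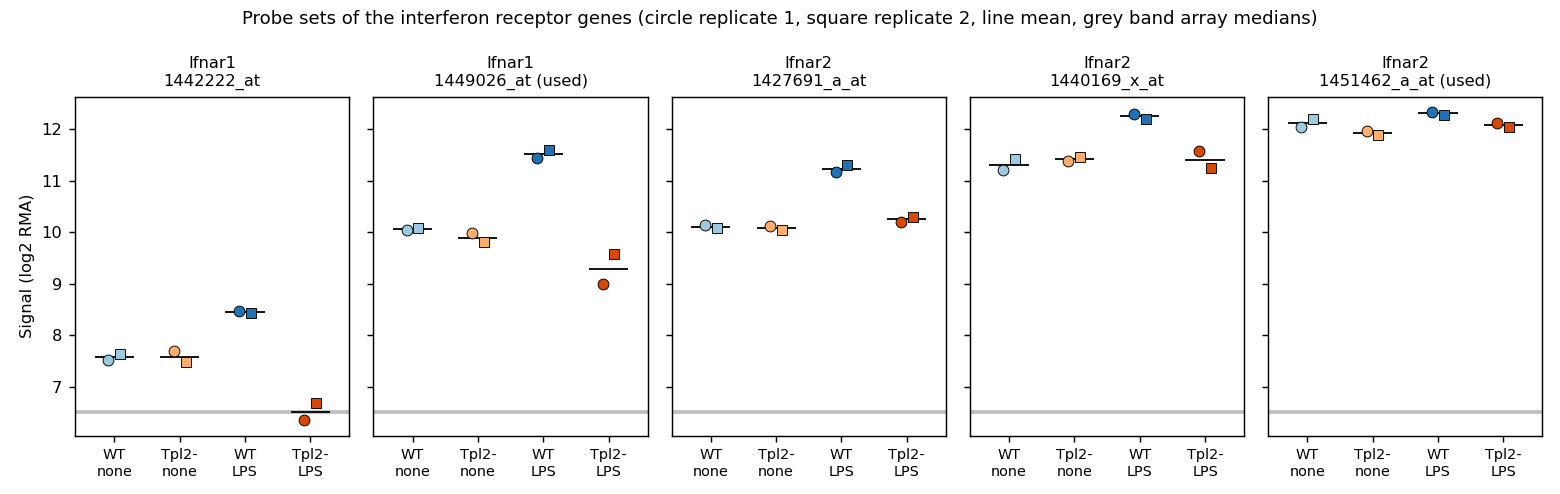
Signal (log2 RMA) of the 2 probe sets of Ifnar1 and the 3 of Ifnar2 on each array, with groups, symbols and lines as in the plot of the 10 genes. The LPS-treated wild-type arrays are the highest for 4 probe sets by a clear gap, and for 1451462_a_at the groups lie within 11.88 and 12.33.

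Ifnar2 and Ifnar1 lie on chromosome 16 beside the cytokine receptor genes Il10rb and Ifngr2. RefSeq orders the genes there as Olig2, Olig1, Ifnar2, Il10rb, Ifnar1, Ifngr2, Tmem50b, Dnajc28 and Gart. These neighbours were chosen after the values of Ifnar1 were seen. With LPS, on the brightest probe sets, 3 of the 7 neighbours were lower in Tpl2-deficient than in wild-type cells. Tmem50b differed by -1.11 ± 0.10 (adjusted p = 2.83e-05, limma), having risen with LPS in wild type (0.65) and fallen in Tpl2-deficient cells (-0.46, adjusted p = 0.00336). Ifngr2, a chain of the interferon gamma receptor, differed by -0.70 ± 0.12 (adjusted p = 0.00184), but its other probe set gave -0.23 (adjusted p = 0.303). Il10rb, a chain shared by the interleukin 10 and interferon lambda receptors, differed by -0.45 ± 0.09 (adjusted p = 0.00848), and its other probe set gave -0.35 and did not pass (adjusted p = 0.117 over all probe sets). Dnajc28 and Gart, at the far end, gave 0.17 and -0.24 and did not pass, nor did the oligodendrocyte factors Olig1 and Olig2.

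Irf3, the factor that TBK1 activates without new synthesis, was lower with LPS. Its signal was 11.14 and 11.01 in unstimulated wild-type cells, 10.87 and 10.81 in unstimulated Tpl2-deficient cells, 10.23 and 10.25 in wild-type cells with LPS, and 10.52 and 10.60 in LPS-treated Tpl2-deficient cells. No group overlaps another, and the unstimulated groups are above both LPS groups. LPS lowered it 1.78-fold in wild type (-0.83 ± 0.10, adjusted p = 2.76e-05, limma). The change in Tpl2-deficient cells was -0.28 ± 0.10 (adjusted p = 0.0418), and the responses differed by 0.55 ± 0.14 (adjusted p = 0.0353). Those last calls are weak. The first was lost without any single array other than LPS-treated Tpl2-deficient replicate 2 (-0.24 to -0.31, adjusted p from 0.0583 to 0.204), and the other without any single unstimulated or LPS-treated wild-type array (0.49 to 0.62, adjusted p from 0.0742 to 0.148). The other 3 probe sets of Irf3 did not pass for the difference of responses, and 1438721_a_at, which reads under the medians, gave the opposite sign (-0.11, adjusted p = 0.744). For the fall in wild type, 1416898_a_at (-0.47, adjusted p = 0.00409) and 1435271_at (-0.57, adjusted p = 0.000516) passed too, and 1438721_a_at did not (-0.23, adjusted p = 0.0983). For the fall in Tpl2-deficient cells, 1438721_a_at passed (-0.34, adjusted p = 0.0236), and 1416898_a_at (-0.16, adjusted p = 0.308) and 1435271_at (-0.26, adjusted p = 0.0642) did not. The brightest probe set of Irf3 is of a design, marked _x_at, whose probes may also bind other transcripts. With such sets left out, the fall in Tpl2-deficient cells was -0.16 (adjusted p = 0.285) and the difference of responses 0.31 (adjusted p = 0.249), and neither passed.

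Irf7, the factor that sustains type I interferon once its own level has risen, had the largest LPS rise in wild type among the 9 genes whose levels all lie above the array medians. Its signal was 9.84 and 9.76 in unstimulated wild-type cells, 10.77 and 10.16 in unstimulated Tpl2-deficient cells, 13.53 and 13.60 in wild-type cells with LPS, and 13.50 and 13.78 in LPS-treated Tpl2-deficient cells. The genotypes overlap with LPS, and without it both Tpl2-deficient arrays are above both wild-type arrays. LPS raised it 13.6-fold in wild type (3.77 ± 0.17, adjusted p = 1.22e-08, limma) and by 3.17 ± 0.17 on the log2 scale in Tpl2-deficient cells ( adjusted p = 4.72e-08). The genotype difference with LPS was 0.07 (interval -0.31 to 0.45). Without LPS it was 0.66 ± 0.17 and did not pass (adjusted p = 0.15), except when unstimulated Tpl2-deficient replicate 2 was left out (0.97, adjusted p = 0.0444). The responses differed by -0.60 (adjusted p = 0.171), or by -0.90 without that array (adjusted p = 0.0289).

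Irf5, which acts behind MyD88 on inflammatory cytokine genes, rose modestly in both genotypes. Its signal was 11.03 and 11.08 in unstimulated wild-type cells, 10.97 and 10.87 in unstimulated Tpl2-deficient cells, 11.55 and 11.73 in wild-type cells with LPS, and 11.55 and 11.80 in LPS-treated Tpl2-deficient cells. The LPS groups overlap each other and lie above both unstimulated groups. The rise was 0.58 ± 0.12 in wild type (adjusted p = 0.00146, limma) and 0.76 ± 0.12 in Tpl2-deficient cells (adjusted p = 0.000262). The genotype difference with LPS was 0.04 (interval -0.22 to 0.30). The other probe set gave 0.49 and 0.52, both past the test.

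Irf1, an activator of interferon gamma and inflammatory target genes, was the only IRF that passed the genotype test with LPS. The next, Irf3, missed it (0.32 ± 0.10, adjusted p = 0.0595, limma), and its difference was 0.36 with LPS-treated Tpl2-deficient replicate 1 left out. Irf3 passed with a mean-variance trend (adjusted p = 0.0301) and among genes above the median level (adjusted p = 0.0327). Its other probe sets gave 0.01, 0.20 and 0.07 and did not pass (adjusted p = 0.972, 0.26 and 0.789). The signal of Irf1 was 10.89 and 10.81 in unstimulated wild-type cells, 10.98 and 10.91 in unstimulated Tpl2-deficient cells, 13.29 and 13.36 in wild-type cells with LPS, and 13.95 and 14.17 in LPS-treated Tpl2-deficient cells. Both LPS-treated Tpl2-deficient arrays exceed both LPS-treated wild-type arrays. LPS raised it by 2.47 ± 0.11 in wild type (adjusted p = 8.73e-09, limma) and by 3.11 ± 0.11 in Tpl2-deficient cells (adjusted p = 1.49e-09). With LPS the signal was 1.66-fold higher in Tpl2-deficient cells (0.73 ± 0.11, adjusted p = 0.000874). The responses differed by 0.64 ± 0.15 (adjusted p = 0.0268). That last call was lost without any 1 of the unstimulated or LPS-treated wild-type arrays (0.60 to 0.68, adjusted p from 0.0737 to 0.117) and with arrays centred on the spike-ins (0.57, adjusted p = 0.118).

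Irf2, which competes with IRF1 for the same DNA sites, rose in both genotypes. Its signal was 10.17 and 10.13 in unstimulated wild-type cells, 10.30 and 10.28 in unstimulated Tpl2-deficient cells, 11.52 and 11.55 in wild-type cells with LPS, and 11.43 and 11.37 in LPS-treated Tpl2-deficient cells. The LPS groups do not overlap, but the gap is small. The rise was 1.39 ± 0.09 in wild type (adjusted p = 2.9e-07, limma) and 1.11 ± 0.09 in Tpl2-deficient cells (adjusted p = 2.05e-06). The genotype difference with LPS was -0.13 (interval -0.34 to 0.07). A single probe set reads Irf2, 1418265_s_at, and its name marks probes that may also bind other transcripts.

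Irf8, a factor of the myeloid lineage that partners with IRF1 and PU.1, did not pass the test in any comparison, but its LPS difference in wild type passed under 6 of the alternatives run. Its signal was 11.77 and 11.68 in both unstimulated groups, 11.47 and 11.54 in wild-type cells with LPS, and 11.60 and 11.69 in LPS-treated Tpl2-deficient cells. The Tpl2-deficient groups overlap. The LPS difference in wild type was -0.22 (adjusted p = 0.088, limma), and the other probe set gave 0.22 (adjusted p = 0.157), of the opposite sign. The fall passed with quantile normalization repeated (-0.28, adjusted p = 0.037), spike-in centring (-0.36, adjusted p = 0.0407), a mean-variance trend (adjusted p = 0.0414) and array weights (adjusted p = 0.0384), and without either LPS-treated Tpl2-deficient array (adjusted p = 0.0439 each). The genotype difference with LPS was 0.14 (adjusted p = 0.474).

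Irf9, the DNA-binding part of the complex that carries the receptor signal, rose in both genotypes. Its signal was 9.61 and 9.63 in unstimulated wild-type cells, 9.60 and 9.55 in unstimulated Tpl2-deficient cells, 10.77 and 10.91 in wild-type cells with LPS, and 10.85 and 10.96 in LPS-treated Tpl2-deficient cells. The genotypes overlap with LPS. The rise was 1.22 ± 0.10 in wild type (adjusted p = 1.39e-06, limma) and 1.33 ± 0.10 in Tpl2-deficient cells (adjusted p = 8.02e-07), and the genotype difference with LPS was 0.06 (interval -0.16 to 0.29).

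**Figure D3:**
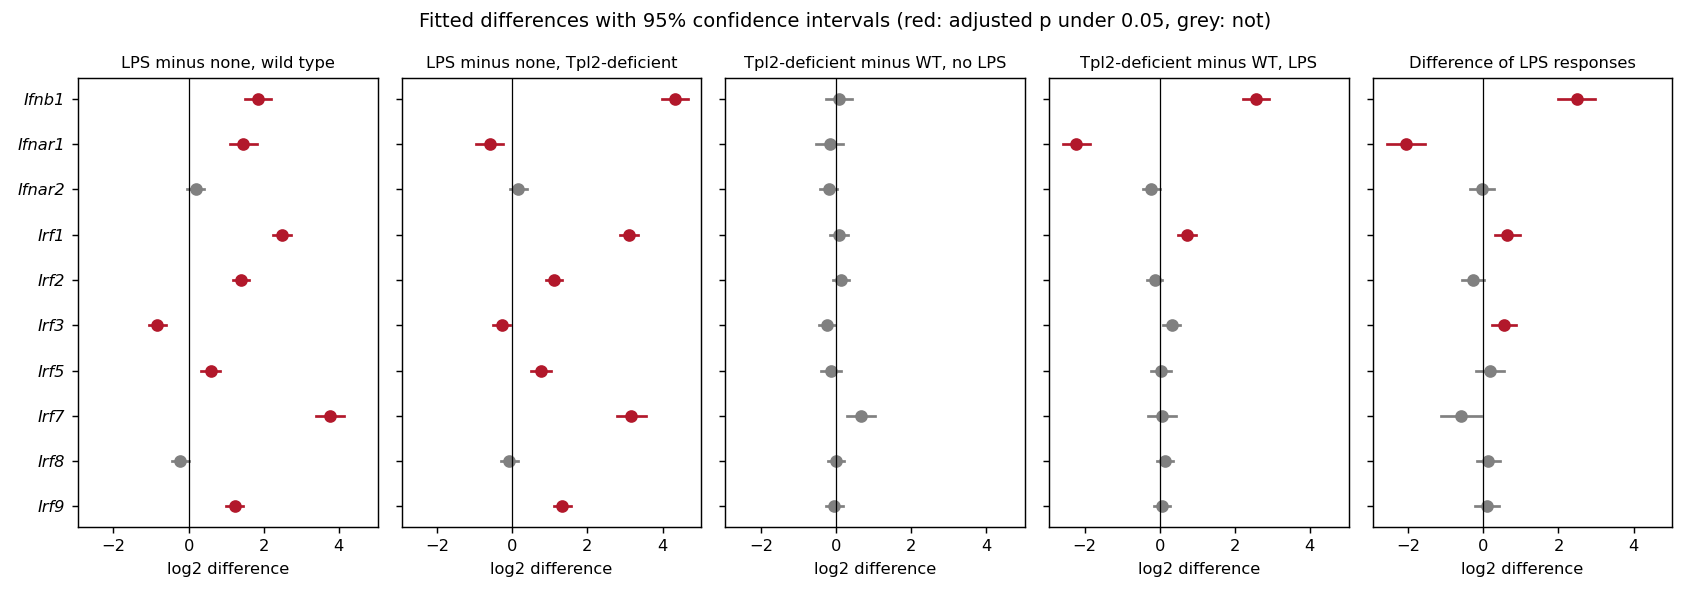
Fitted log2 differences of the 10 genes in the 5 comparisons, with points for the estimate and bars for the 95% interval; red marks an adjusted p under 0.05. Between genotypes, Ifnb1 (2.57), Irf1 (0.73) and Ifnar1 (-2.22) are marked with LPS, and 0 of the 10 genes without LPS. The intervals are not adjusted for the number of genes, and with LPS that of Irf3 (0.10 to 0.54) also leaves out 0. Without LPS those of Irf3 (-0.45 to -0.02) and Irf7 (0.28 to 1.045) do so too.

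Genes upstream of interferon beta were read from lists of the pathway. Of 14 genes of the arm from toll-like receptor 4 to IRF3, 9 rose and 3 fell in LPS-treated wild type, and 9 rose and 4 fell in Tpl2-deficient cells. The kinases named above rose in both: Tbk1 by 1.03 and 0.91, and Ikbke by 1.61 and 1.42. With LPS the receptor gene Tlr4 was lower in Tpl2-deficient cells, at 7.92 and 8.23 against 9.54 and 9.46 (-1.42 ± 0.12, adjusted p = 1.19e-05, limma). Tbkbp1, which binds TBK1, was lower too (-0.61, adjusted p = 0.00413), and Ly96, the co-receptor MD-2, was higher (0.51, adjusted p = 0.0464). The call of Ly96 was lost without any 1 of the unstimulated or LPS-treated wild-type arrays, and without LPS-treated Tpl2-deficient replicate 2 the list gave 4 lower genes. The list median was -0.05, against 0.02 over all genes. Of 10 cytosolic nucleic acid sensors and partners, 8 rose and 1 fell in wild type, and 7 rose and 1 fell in Tpl2-deficient cells, with Ifih1, the RNA sensor MDA5, up by 4.18 and 3.94. Of these, only the RIG-I ligase Rnf135 differed between genotypes with LPS (0.35, adjusted p = 0.0349), a call lost without any 1 of the unstimulated or LPS-treated wild-type arrays.

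Of 11 factors that share the Ifnb1 enhancer or belong to the AP-1 family, 5 rose and 2 fell in wild type, and 5 rose and 3 fell in Tpl2-deficient cells. The NF-κB subunit gene Rel rose by 3.08 and 3.14, and Rela by 0.82 in both. With LPS, 0 were higher and 2 were lower in Tpl2-deficient cells (5 lower without LPS-treated Tpl2-deficient replicate 2). Fos read 8.94 and 8.82 against 11.61 and 11.78 (-2.81 ± 0.11, adjusted p = 8.21e-08, limma), and Jun 9.35 and 9.55 against 10.15 and 10.04 (-0.64 ± 0.11, adjusted p = 0.00195). Of 16 ERK-responsive genes, 0 were higher and 12 lower in LPS-treated Tpl2-deficient cells, against 8.01% and 5.73% of all genes, the median being -1.81. The ERK phosphatases Dusp4 (-3.16) and Dusp6 (-3.05) led these falls, which are bounds since their group means lie under the array medians there. The same split of 0 and 12 was found without either LPS-treated Tpl2-deficient array.

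Of 4 further measured genes of the IRF family or its binding partners, 3 fell with LPS in each genotype, and Irf2bp2 and Irf2bpl, which encode IRF2-binding proteins, were lower in LPS-treated Tpl2-deficient cells. Irf2bp2, a corepressor, read 12.27 and 12.35 in unstimulated wild-type cells, 12.26 and 12.30 in unstimulated Tpl2-deficient cells, 9.46 and 9.45 in wild-type cells with LPS, and 7.92 and 8.19 in LPS-treated Tpl2-deficient cells. It fell in both genotypes and was lower by 1.40 in the latter (-1.40 ± 0.11, adjusted p = 1.01e-05, limma). Irf2bpl differed by -1.22 ± 0.12 (adjusted p = 5.72e-05). Irf4, the lymphoid member, stayed under the array medians on all 8 arrays, between 5.75 and 6.15. Of 8 other interferon genes, 3 rose with LPS in each genotype, by small amounts: Ifna1 by 0.60 and 0.64, Ifna5 by 0.62 and 0.59, and Ifng by 0.60 and 0.46. Between genotypes with LPS 0 passed (limma; 0 had an unadjusted p under 0.05), the differences running from -0.18 to 0.19. Ifna genes are near-identical copies, so which of them a probe set reads is uncertain, and Ifna5 and Ifng lie under the medians throughout, so their expression was not shown.

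Genes downstream of the interferon receptor rose with LPS in both genotypes. Of 29 interferon-stimulated genes, 29 rose with LPS in each genotype, with medians of 3.999 and 3.785. Over all genes, 21.3% rose in wild type and 16% in Tpl2-deficient cells. The chemokine gene Cxcl10 rose by 7.51 and 7.03. With LPS, 0 of 29 differed between genotypes, against 13.7% of all genes (limma, and 2 of the 29 had an unadjusted p under 0.05). The list median was -0.04, from -0.46 for Mx2 to 0.51 for Oas3. Leaving out either LPS-treated Tpl2-deficient array also gave 0, and leaving out an unstimulated array gave 1. At rest 3 were higher in Tpl2-deficient cells, Cmpk2 (0.88), Oasl1 (0.86) and Gbp2 (0.80), against 0.154% of all genes, the list median being 0.30. That count was 0 without unstimulated wild-type replicate 2 or unstimulated Tpl2-deficient replicate 1, and 1 without Tpl2-deficient replicate 2. The LPS response was smaller in Tpl2-deficient cells for 4 (Cmpk2, Oasl1, Gbp2 and Rsad2, by 0.72 to 0.98 on the log2 scale), and for 2 without unstimulated wild-type replicate 2, unstimulated Tpl2-deficient replicate 1 or LPS-treated wild-type replicate 2.

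Of 9 receptor signalling genes, in wild type LPS raised 6 and lowered 2, and 5 rose and 2 fell in Tpl2-deficient cells. The kinase gene Jak2 rose by 3.66 and 3.33, and Stat2 by 2.98 and 2.94. With LPS, Ifngr1 (-0.50, adjusted p = 0.00659, limma), Ifngr2 and Il10rb were lower in Tpl2-deficient cells and Tyk2 was higher (0.50, adjusted p = 0.0394). The lower count was 1 without LPS-treated wild-type replicate 1 and 5 without LPS-treated Tpl2-deficient replicate 2, and the call of Tyk2 was lost without any single array other than LPS-treated Tpl2-deficient replicate 1. Of 15 negative regulators, 9 rose and 2 fell in wild type, and 11 rose and 1 fell in Tpl2-deficient cells. Socs1, an inhibitor of JAK kinases, rose at least 3.85 and at least 3.73 on the log2 scale, and Usp18, which blocks the receptor at IFNAR2, by 5.02 and 4.65. With LPS, 13.7% of all genes differed between genotypes, 8.01% higher and 5.73% lower without Tpl2. Of the 15 regulators 6 differed, 4 being higher and 2 lower. Among them were Pias3 (0.93, adjusted p = 7.57e-05, limma), an inhibitor of STAT3, and Socs3 (-0.73, adjusted p = 0.0196). Leaving out either LPS-treated wild-type array gave 1 higher and 1 lower, and leaving out either LPS-treated Tpl2-deficient array gave 1 lower.

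Of 19 genes known as targets of IRF1 or IRF8, in wild type LPS raised 15 and lowered 1, and 16 rose and 0 fell in Tpl2-deficient cells. With LPS, Tpl2-deficient cells had 4 of them higher and 0 lower, with a list median of 0.12. Over all genes, 8.01% were higher and 5.73% lower, with a median of 0.02. Ciita, the regulator of MHC class II genes, read 9.04 and 9.49 against 7.44 and 7.50 (1.80 ± 0.15, adjusted p = 1.79e-05, limma). Il12a and Il12b, the chains of interleukin 12, were higher by 1.62 and 1.36 (adjusted p = 3.72e-05 and 0.000358), and the pro-apoptotic Bcl2l11 by 0.67 (adjusted p = 0.00139). Nos2, the inducible nitric oxide synthase, differed by -0.78 and did not pass (adjusted p = 0.0517). Without LPS-treated Tpl2-deficient replicate 2, 7 were higher and 1 lower.

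**Figure D4:**
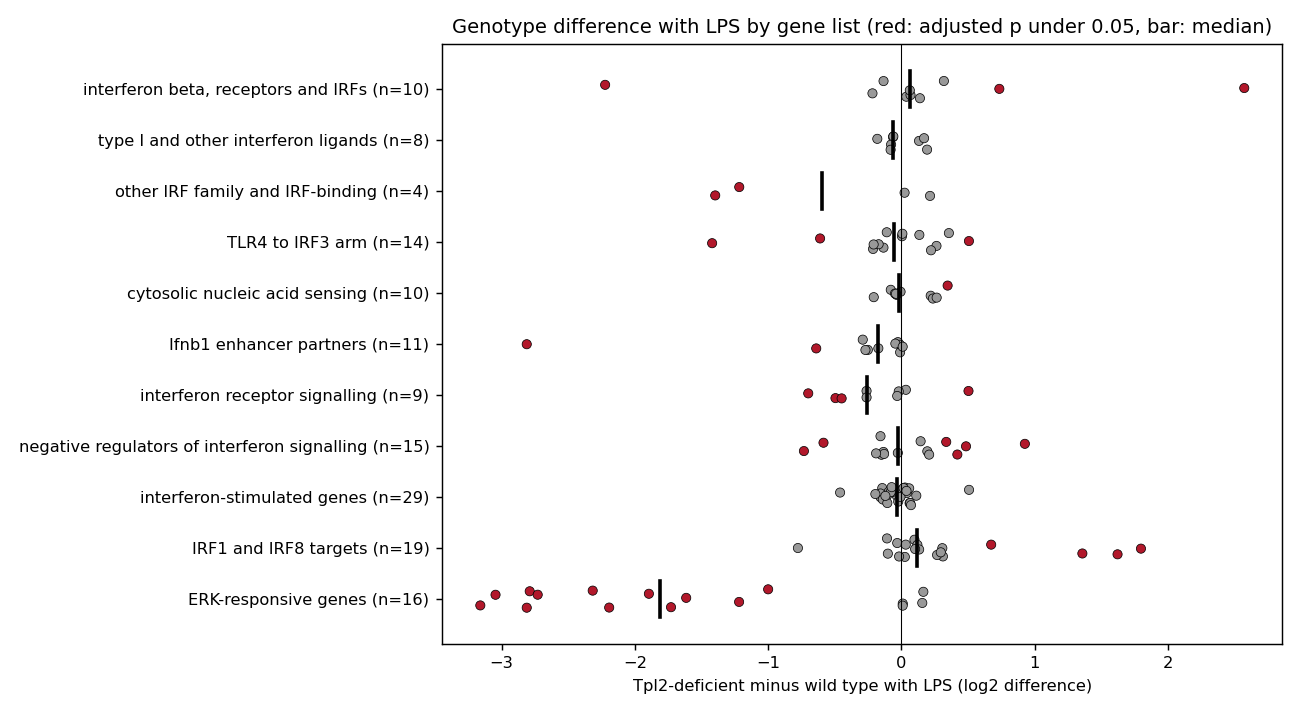
Genotype difference with LPS (Tpl2-deficient minus wild type, log2) of each measured gene, by list; red points have an adjusted p under 0.05 and bars are list medians. The 29 interferon-stimulated genes lie between -0.46 and 0.51 with 0 red, whereas 12 of 16 ERK-responsive genes are red and below 0. Among all genes, 13.7% passed this threshold.

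Genes with a pattern most like that of Ifnb1 were found by the root mean square difference of log2 signals over the 8 arrays, each gene centred on its own mean. The closest were Adhfe1, a mitochondrial alcohol dehydrogenase (0.305), the nuclear protein gene Csrnp1 (0.360), Il12a (0.405), Icosl, the ligand of the costimulatory receptor ICOS (0.437), and the RNA helicase gene Ddx4 (0.441). Over the same 8 arrays, which fall into the 4 groups, Adhfe1 correlated with Ifnb1 at r = 0.991 and Ddx4 at 0.970. Adhfe1 read 5.46 and 5.29, then 5.39 and 5.57, without LPS, and 7.68 and 7.92 in wild type against 10.11 and 10.24 in Tpl2-deficient cells with LPS. Like Ifnb1, it was under the array medians in all unstimulated arrays and highest in LPS-treated Tpl2-deficient cells. The genotype differences with LPS of the other 4 ran from 1.42 for Ddx4 to 1.67 for Csrnp1, smaller than the 2.57 of Ifnb1. The genes were picked for this likeness, so their values are a description.

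**Figure D5:**
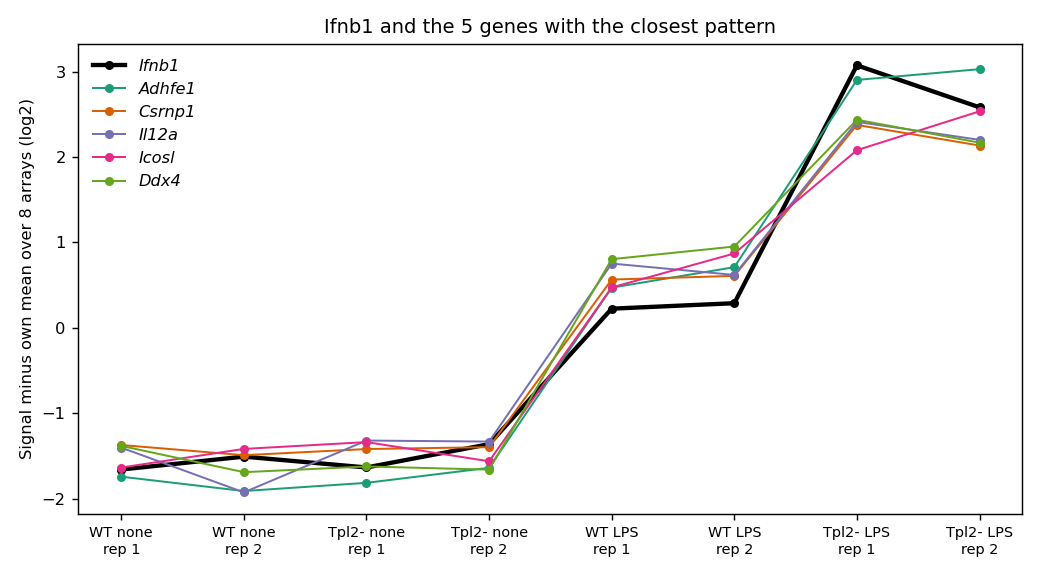
Signal minus each gene's own mean (log2) on the 8 arrays for Ifnb1 (black) and the 5 genes with the closest pattern. Lines join arrays in the order drawn and have no meaning between arrays; all 6 genes are highest on the 2 LPS-treated Tpl2-deficient arrays.

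Markers of other cells were read on the same arrays. Of 7 markers of plasmacytoid dendritic cells, a rich source of type I interferon, 4 lay above the array median on all 8 arrays, and 0 differed between genotypes with LPS (limma; 1 had an unadjusted p under 0.05). Their mean signal was 7.47 to 7.51 in unstimulated wild-type and 7.48 to 7.58 in unstimulated Tpl2-deficient arrays, 8.12 to 8.22 in LPS-treated wild-type arrays and 8.16 to 8.29 in LPS-treated Tpl2-deficient arrays, and the defining marker Siglech read 6.97 to 7.16 on these 4 arrays. With LPS, 2 of 8 macrophage markers passed the genotype test, Itgam (-0.70) and Mertk (1.00), and their mean signal was 13.15 to 13.16 in wild-type and 13.01 to 13.16 in Tpl2-deficient arrays. So did 1 of 6 conventional dendritic cell markers (Itgax, -0.56), 1 of 8 neutrophil markers (S100a8, -1.14) and 1 of 6 stromal markers (Pdgfrb, 1.20). Among all genes, 13.7% passed the same test. Of 6 T and NK cell, 5 B cell and 3 erythroid markers 0 passed (limma; 0 had an unadjusted p under 0.05). Markers also moved with LPS, as did many genes. Over all genes, 21.3% rose and 30.9% fell in wild type, and 16% rose and 25.8% fell in Tpl2-deficient cells. Of the plasmacytoid dendritic cell markers, 3 of 7 rose in each genotype, Ccr9 the most (2.06 in wild type and 2.20 in Tpl2-deficient cells). Bst2, which is also counted among the interferon-stimulated genes, rose by 1.73 in wild type and 1.84 in Tpl2-deficient cells. Of the neutrophil markers, 6 of 8 rose in wild type and 2 of 8 in Tpl2-deficient cells. Their mean signal was 6.86 to 7.02 in unstimulated arrays, and 7.44 to 7.47 in wild-type and 7.22 to 7.30 in Tpl2-deficient arrays with LPS. Of the stromal markers, Pdgfrb alone rose in each genotype (3.84 and 4.95). Among the macrophage markers, 2 rose and 2 fell in wild type, and 2 rose and 4 fell in Tpl2-deficient cells.

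RNA integrity can be read from probe sets along 1 transcript. Actb probe sets near the 3' end exceeded those near the 5' end, a gap that is smaller in intact RNA, by 0.46 and 0.55 (log2) in LPS-treated wild-type and 0.61 and 0.68 in LPS-treated Tpl2-deficient arrays. The gap was wider on all 4 unstimulated arrays, 0.81 and 0.67 in wild type and 0.87 and 0.90 without Tpl2, than on LPS-treated wild-type arrays. For Gapdh it was -0.09 and -0.08 in LPS-treated wild-type and 0.05 and 0.10 in LPS-treated Tpl2-deficient arrays, against 0.09 and -0.03, then 0.07 and 0.06, in unstimulated wild-type and Tpl2-deficient cells. The part of these markers and of RNA integrity in the genotype differences of Ifnb1, Ifnar1 and Irf1, and in the LPS responses of the 10 genes, was not tested.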

How the data were processed

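RNA of mouse macrophages was labelled with biotin and hybridised to 8 arrays, 2 per group. The authors made the deposited log2 values with GCOS and RMA, per the submitters' processing notes; versions, chip definition and genome build are not given in the sources used here. No further normalization and no filter on low values was applied.

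Of 45101 probe sets, 34945 were used (1 gene symbol, no control), while 932 had more than 1 symbol, 9160 had no symbol and 64 were controls. A gene took its probe set with the highest mean, which gave 18193 genes. Symbols of 34884 probe sets matched RefSeq (GRCm38.p6), which also gave promoters and gene order. Arrays give no read depth, and their number limits the precision.

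A linear model with 4 group means and no replicate term was fitted to all arrays together (limma 3.58.1, R 4.3.3; lmFit, then eBayes; tests two-sided), leaving 4 residual and 6.87 prior degrees of freedom. The threshold was 0.05 for p-values adjusted by Benjamini-Hochberg across the 18193 genes (single probe sets: across all 34945). Method checks on simulated data were run. The 5 comparisons were LPS in each genotype, genotype at rest and under LPS, and the interaction of both.

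The genes, lists and rules were chosen with earlier results of these data known. Named are the 10 genes, up to 3 genes past the test per list and comparison, Map3k8 and the 5 genes most like Ifnb1; further names were chosen after their values were seen. Of 218 entries in 18 lists, 185 were measured; the rest were not analysed here. Alternatives were other probe set rules, scalings, variance models, filters, leaving out each array in turn and a replicate block; a crossed pairing was added after seeing the data.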

Additional observations from a re-analysis of the deposited data

Results flagged for a closer look

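For 4 of the 10 genes the LPS response differed between the genotypes by the interaction test (limma, adjusted over all genes). Response in Tpl2-deficient cells minus response in wild type was 2.49 for Ifnb1 (adjusted p = 6.5e-05) and -2.06 for Ifnar1 (adjusted p = 0.000299). It was 0.64 for Irf1 (adjusted p = 0.0268) and 0.55 for Irf3 (adjusted p = 0.0353). Those 2 calls are weak, and spike-in centring lost both (adjusted p = 0.118 and 0.179, limma). The other probe sets of Irf3 did not pass (adjusted p from 0.237 to 0.744). Ifnar2 is not among the 4 by its brightest probe set, but its other 2 probe sets passed (-0.95 each, adjusted p = 0.00302 and 0.0107). Groups of 2 arrays are too small for a test of single arrays that stand apart.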

How the results depend on the processing

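The direction of each of the 10 genes' called differences was kept under every alternative run, except for the difference of LPS responses of Irf3, which was -0.11 with probe set 1438721_a_at. The calls for Ifnb1 in the LPS and genotype comparisons where it passed, and for Ifnar1 with LPS between genotypes, held under all alternatives run. With a 2-fold minimum, 5 of the 10 genes passed for LPS in Tpl2-deficient cells and 2 for the difference of responses, and with spike-in centring 2 passed for the latter. Leaving out 1 array gave 8 to 9 genes for LPS in wild type, 6 to 8 in Tpl2-deficient cells, 0 to 1 without LPS between genotypes, 3 to 4 with LPS, and 2 to 4 for the difference of responses. Spike-in centring moved the median of all genes for LPS from 0.04 to -0.09 in wild type and from 0.00 to -0.20 in Tpl2-deficient cells. With the pair of IRF cores in place of the single core, 1 promoter matched. Same-numbered arrays of different groups deviated together at r from -0.12 to 0.10 across genes, so the numbers were not read as pairs; with the replicate block, 7 of 10 genes passed for LPS in Tpl2-deficient cells and 3 for the difference of responses, Irf3 being lost from both (adjusted p = 0.0577 and 0.0505), and no other call of the 10 genes changed. The crossed pairing for LPS in Tpl2-deficient cells gave 8 genes.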
